A study of Homo sapiens with 18 samples.

Results

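Knockdown of the long noncoding RNA XIST with the guide sgXIST7 was compared with the control guide sgControl in ovarian cancer cells kept under hypoxia. The groups were taken from the sample labels, with 3 sgXIST7 libraries against 3 sgControl libraries, 6 of the 18 RNA-seq libraries of the series, over all genes of the count table. The cells were OVCAR3-KRAB, a derivative of the established line OVCAR3 that stably expresses dCas9-KRAB, in which a nuclease-dead Cas9 carries a domain that represses transcription where a guide directs it. All 6 samples were grown in DMEM with serum and spent 24 h at 1% oxygen. The other 12 libraries came from the same guides in normoxia and from a second guide against XIST, sgXIST9, in both conditions. The study's methods describe clonal lines, so guide and clone cannot be told apart here. The study describes its RNA-seq replicates as biological, but how the cultures were kept apart is not given in the sources used here. The p-values measure spread between libraries only, with one estimate shared by all 18 libraries in 6 groups.

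In female cells, XIST is transcribed from the X chromosome that is to be inactivated, coats it and brings in complexes that silence most of its genes. JPX and FTX are noncoding genes beside XIST that are known to promote its expression, and TSIX is its antisense transcript. Hypoxia stabilizes the alpha subunits HIF1A and EPAS1 of the hypoxia-inducible factors, which then drive genes of glycolysis, blood vessel growth and matrix remodelling.

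The guide acts at the XIST promoter, which is shown because the first result rests on this site. The 300 bases below lie on the minus strand of chromosome X in GRCh38.p14 (chrX:73852665-73852964, sequence from RefSeq), from 250 bases before to 50 bases after the start of the gene, and are written 5′ to 3′ along XIST. Capitals mark the 20 bases of the sgXIST7 site (chrX:73852732-73852751), which lie 18 to 37 bases before the RefSeq start. The guide has the sequence of the plus strand, where a GGG serves as PAM.
XIST promoter: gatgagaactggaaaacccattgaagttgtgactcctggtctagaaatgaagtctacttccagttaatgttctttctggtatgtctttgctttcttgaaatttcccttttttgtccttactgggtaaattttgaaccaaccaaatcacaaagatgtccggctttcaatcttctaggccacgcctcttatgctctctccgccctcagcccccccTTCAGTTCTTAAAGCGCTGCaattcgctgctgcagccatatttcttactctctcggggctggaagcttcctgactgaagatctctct

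Total counts ranged from 12042716 to 24906936 over the 6 libraries, with a median of 17565148, so that 3 counts corresponded to 0.136 to 0.266 CPM, the counts scaled to a common library size of 1000000. The first principal component held 71.6% of the variance and separated the guides. The second, with 16.5%, set sgControl replicate 3 apart, which was also the shallowest library. Markers of the labelled tissue were sparse. Of 12 markers of serous ovarian or Mullerian epithelium, 4 had enough counts to be tested (PAX8, KRT8, KRT18 and EPCAM), MUC16 and SOX17 had 0 counts in all 6 libraries, and MECOM, KRT7, KRT19 and CDH1 had 3 or fewer in each. These absent markers go against the label of an ovarian epithelial line, and the identity of the line was not tested.

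XIST was lost in sgXIST7 under hypoxia. Its level in sgControl was 123, 249 and 141 CPM (mean 171 ± 67.95, SD, n = 3), from 1974, 5014 and 1589 counts. In sgXIST7 it was 0, 0.0906 and 0.259 CPM, from 0, 2 and 3 counts. The groups did not overlap, and with all sgXIST7 libraries at or under 3 counts the level was at least 953-fold lower (adjusted p = 2.4e-08, edgeR quasi-likelihood test). In normoxia the same guide gave 0.216, 0.222 and 0.0436 CPM against 329, 867 and 242 CPM in sgControl. Under hypoxia sgXIST9 left 16.3, 21.4 and 32.2 CPM, above each sgXIST7 library and below each sgControl library.

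Of the 23 genes listed within 1000000 bases on either side of the XIST start, 9 were tested, 0 were called higher and 2 lower, with a median log2 fold change of -0.36. JPX was at 11.7, 7.25 and 14.7 CPM in sgControl and 5.06, 4.44 and 6.3 CPM in sgXIST7 (log2 fold change -1.09, SE 0.248, adjusted p = 0.0022). The groups did not overlap, but the call was lost without sgControl replicate 3 (-0.86) or without sgXIST7 replicate 2 (-0.98). The second gene, named after its value was seen, was NAP1L2 at -1.56. Fitted on the 6 compared libraries alone, neither call held, with adjusted p = 0.034 for JPX and 0.038 for NAP1L2. FTX was at 7.94, 6.9 and 9.57 CPM in sgControl and 9.84, 9.65 and 8.55 CPM in sgXIST7, with overlapping groups. RLIM, a ubiquitin ligase that promotes XIST expression, was at -0.36 (adjusted p = 0.0033), short of the fold threshold. TSIX was too sparse to test, with 1, 6 and 0 counts in sgControl and 0 in each sgXIST7 library.

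Over the whole transcriptome, 14938 genes were tested. A gene was called when its adjusted p was under 0.01 and its log2 fold change was beyond 1 in either direction. In sgXIST7, 1169 genes were higher (7.83% of the genes tested) and 924 were lower (6.19%), together 14.0%. The counts of called genes in the lists below stand against these shares. The libraries of the groups did not overlap for 1140 of the genes called higher and 840 of those called lower, against 6048 of all tested genes (40.5%). The median log2 fold change over all genes was -0.02. A log2 fold change above 3 was reached by 234 called genes and one below -3 by 155. For 93 of the genes called higher, sgControl had 3 or fewer counts in each library, and for 76 of those called lower, sgXIST7 did. On the 6 compared libraries alone, 689 genes were higher and 424 lower. Without the third library of both groups, a fit added after seeing the data, 1387 genes were higher and 1126 lower.

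**Figure D1:**
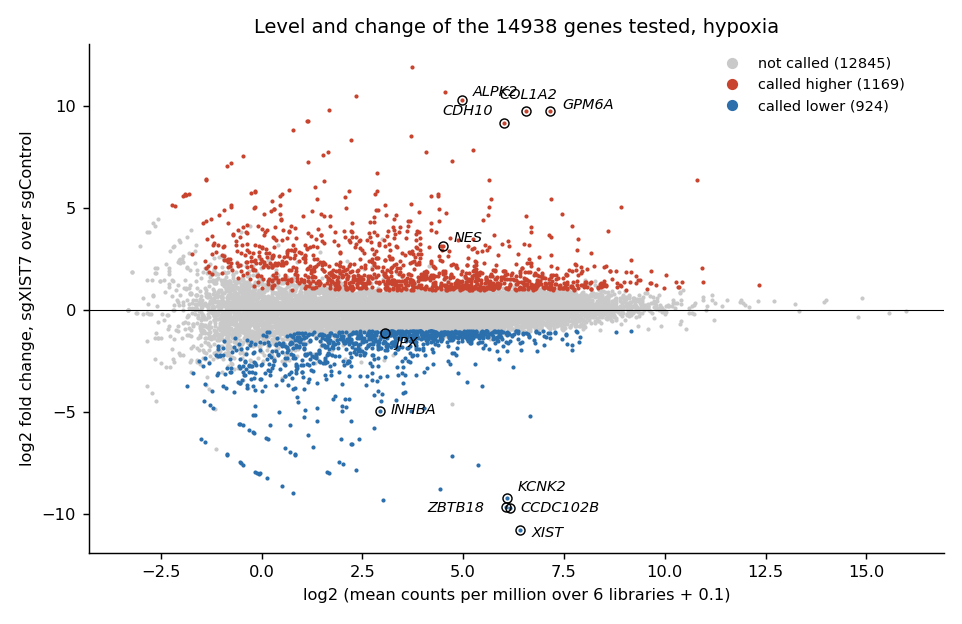
Log2 fold change of sgXIST7 over sgControl under hypoxia against log2 of the mean CPM over the 6 libraries plus 0.1, 1 point for each of the 14938 genes tested. The 1169 genes called higher and the 924 called lower lie beyond 1 on the log2 scale, and XIST is the lowest point, at -10.75.

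The genes with the largest rises, taken among those with non-overlapping groups and a mean count of at least 100, were at or near 0 in sgControl. GPM6A, a membrane glycoprotein of neurons, was at 0.188, 0.397 and 0.354 CPM in sgControl and 284, 249.9 and 319 CPM in sgXIST7 (log2 fold change 9.78, SE 0.204). COL1A2, a chain of type I collagen, was at 0.125, 0.248 and 0.266 CPM in sgControl and 125, 136 and 306 CPM in sgXIST7 (9.76, SE 0.617). The cadherin CDH10 was at 0.125, 0.199 and 0.354 CPM in sgControl and 104, 107 and 174 CPM in sgXIST7 (9.20, SE 0.391). For these 3 genes every sgXIST7 library stood far above every sgControl library.

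SLITRK3, a synaptic adhesion protein, was at 0 CPM in each sgControl library and 26.3, 28.2 and 24.9 CPM in sgXIST7, at least 132-fold higher. MYOC, which encodes the secreted protein myocilin, was at least 232-fold higher, the kinase ALPK2 at least 313-fold and ARHGAP24, a GTPase-activating protein, at least 128-fold. In all 4 genes the sgControl libraries held 3 or fewer counts. MAP2, a microtubule protein of neurons, was at 0.375, 0.0496 and 0 CPM in sgControl and 37.8, 38.4 and 24.4 CPM in sgXIST7. The polarity gene CRB1 (7.86), the transcription factor LHX9 (7.33), which acts in gonad formation, and the methyltransferase INMT (6.74) rose too. The collagen COL12A1, which sgControl already expressed, was at 36.3, 47.1 and 40.6 CPM in sgControl and 2432, 3473 and 4623 CPM in sgXIST7 (6.41, SE 0.285).

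The steepest falls were taken by the same rule, among genes with non-overlapping groups and a mean count of at least 100. The 3 genes given first went from moderate levels to at or near the detection limit. CCDC102B was at 116, 117 and 194 CPM in sgControl and 0.191, 0.136 and 0.173 CPM in sgXIST7 (log2 fold change -9.69, SE 0.298). ZBTB18, a transcriptional repressor of neural development, was at 114, 150.5 and 138 CPM in sgControl and 0.239, 0.136 and 0.0863 CPM in sgXIST7 (-9.62, SE 0.289). The potassium channel KCNK2 was at 107, 124 and 176 CPM in sgControl and 0.0955, 0.227 and 0.432 CPM in sgXIST7 (-9.21, SE 0.351). None of these 3 genes overlapped between the groups, as the rule required.

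SEMA3D, a secreted guidance molecule, was at least 237-fold lower and ANKEF1 at least 87.7-fold lower. ARID5B, a chromatin regulator, fell by 7.60 on the log2 scale, LINC01447 fell by 7.13, DOCK10, an activator of small GTPases, fell by 5.75 and SCAT2 fell by 4.92. BST2, an interferon-induced protein that tethers virus particles to the cell, was at 198, 199 and 192 CPM in sgControl and 8.12, 3.35 and 4.32 CPM in sgXIST7. INHBA, the subunit of activin A, was at 22.2, 15.7 and 5.85 CPM in sgControl and 0.334, 0.362 and 0.863 CPM in sgXIST7. Both were lower in each sgXIST7 library than in any sgControl library, which the rule for the steepest falls required.

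**Figure D2:**
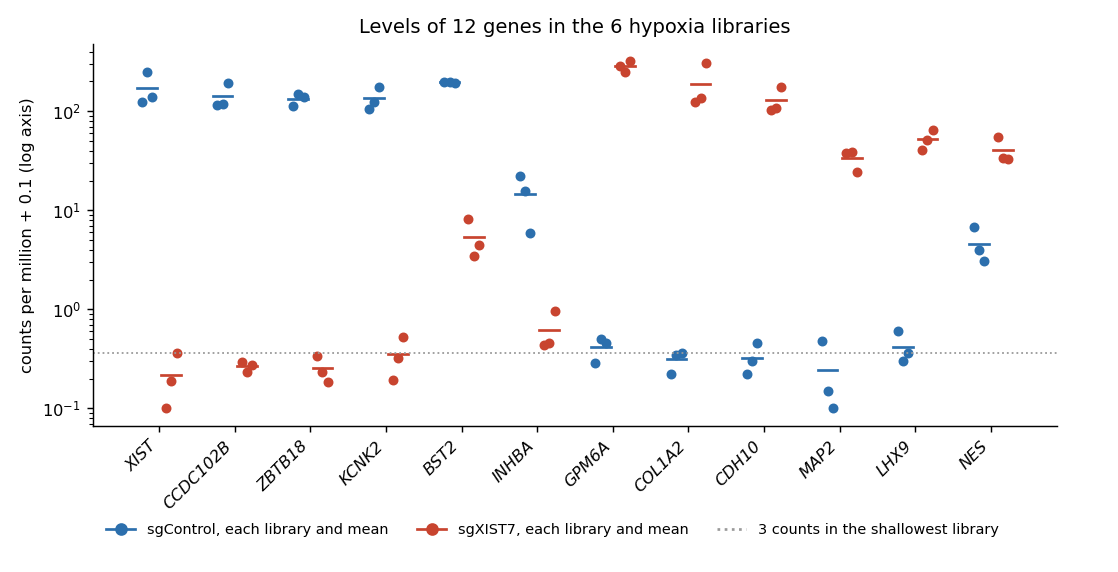
CPM plus 0.1 on a log axis for 12 named genes, 1 point for each of the 3 sgControl (blue) and 3 sgXIST7 (red) hypoxia libraries, with a bar at the mean and a dotted line at 3 counts in the shallowest library. The groups do not overlap for any of these genes, a condition of choice for those named as the largest changes. XIST lies at 0 to 0.259 CPM in sgXIST7.

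Where genes of DNA replication and mitosis were called, they were lower. Of 28 listed, all tested, 0 were called higher and 6 lower, and 27 stood below 0, with a median log2 fold change of -0.83 against -0.02 over all genes. MCM5, a subunit of the replicative helicase, was at 68.5, 78.8 and 112 CPM in sgControl and 41.4, 25.5 and 23.6 CPM in sgXIST7 (log2 fold change -1.51, SE 0.236, adjusted p = 9.4e-05). E2F1, a transcription factor that drives S phase entry, was at 23.3, 20.5 and 23 CPM in sgControl and 11, 7.61 and 6.47 CPM in sgXIST7 (log2 fold change -1.40, SE 0.171, adjusted p = 8.0e-06). CCNE1 (-1.43) and CCNE2 (-1.24), the E-type cyclins, fell as well. The proliferation marker MKI67 (-0.75) and thymidylate synthase TYMS (0.05) were not called.

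Of 15 G1 cyclins and CDK inhibitors, 14 were tested, 0 were called higher and 2 lower, with a median of -0.51, or -0.11 over genes with a mean CPM of at least 1. The inhibitor CDKN2B was at 13.8, 12.9 and 5.58 CPM in sgControl and 2.44, 2.17 and 2.5 CPM in sgXIST7 (log2 fold change -2.19, SE 0.312, adjusted p = 3.8e-05), with no overlap. CCND3, a D-type cyclin, was at 30, 35.4 and 14.2 CPM in sgControl and 15.1, 10.2 and 6.39 CPM in sgXIST7 (-1.32), with overlapping groups, and its call was lost without sgControl replicate 2 (-1.05). Without the third library of both groups, 10 of the 28 replication and mitosis genes were lower and 0 higher. Without sgXIST7 replicate 1 alone, 10 were lower.

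RNA of HIF1A and EPAS1, alpha subunits of the hypoxia-inducible factors, was higher in sgXIST7, with all 6 samples under hypoxia. HIF1A was at 185, 213 and 193 CPM in sgControl and 474, 478 and 519 CPM in sgXIST7 (log2 fold change 1.32, SE 0.087, adjusted p = 7.6e-09). EPAS1, which encodes HIF-2 alpha, was at 23.4, 16.4 and 15.3 CPM in sgControl and 55, 75.5 and 56.1 CPM in sgXIST7 (log2 fold change 1.76, SE 0.189, adjusted p = 2.0e-06). The oxygen-sensing prolyl hydroxylase EGLN3 went the other way, at 12.1, 13.9 and 2.75 CPM in sgControl and 1.39, 1.09 and 0.518 CPM in sgXIST7 (log2 fold change -3.21, SE 0.497, adjusted p = 8.7e-05). None of the 3 overlapped between groups. Of the 10 genes of this list, 8 were tested, and EGLN1 (0.15) and VHL (-0.19), which directs HIF1A to degradation, were among the 5 not called. In normoxia, 2 of the 8 were called higher and 0 lower. A difference in the sgXIST7 effect between hypoxia and normoxia was called for 0 of them.

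Of 30 further hypoxia-induced genes, 27 were tested, 6 were called higher and 0 lower, and 23 stood above 0, with a median of 0.72. CA9, a carbonic anhydrase used as a marker of hypoxia, was at 0.688, 0.298 and 2.92 CPM in sgControl and 13.9, 23.4 and 35.6 CPM in sgXIST7 (log2 fold change 4.37, SE 0.561). LOX, which cross-links collagen, was at 1.5, 0.844 and 0.354 CPM in sgControl and 5.88, 9.29 and 11.8 CPM in sgXIST7 (3.26, SE 0.418). In both of them the sgXIST7 libraries lay above the sgControl libraries.

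MT1X, a metallothionein, rose by 1.68 on the log2 scale, while VEGFA (0.73), CA12 (0.82), ADM (-0.78) and EFNA1 (-1.49) were not called. Without sgControl replicate 3 the list had 12 genes called higher and 1 lower. With 1 library left out, its median ran from 0.45 (without sgXIST7 replicate 3) to 1.04 (without sgControl replicate 3). Of 23 genes of glucose uptake and glycolysis, all tested, 20 stood above 0, with a median of 0.32, running from 0.21 (without sgXIST7 replicate 3) to 0.41 (without sgXIST7 replicate 1) with 1 library left out. The aldolase ALDOC was the only one called (1.40), a call lost without sgControl replicate 1 (1.39), without sgControl replicate 2 (1.07), without sgXIST7 replicate 2 (1.20) or without sgXIST7 replicate 3 (1.37).

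Of 27 pro-apoptotic genes, 25 were tested, 3 were called higher and 0 lower, with a median of -0.18, running from -0.22 (without sgControl replicate 3) to -0.11 (without sgXIST7 replicate 1) with 1 library left out and -0.29 without a filter on low counts. Without sgControl replicate 3 the counts were 5 higher and 1 lower. With all libraries, 10 of the 25 stood above 0 and 15 below, and 7.83% of all genes were called higher. The 3 genes called higher in that fit act in the extrinsic route, in which a ligand triggers a death receptor. Whether this route changed as a set was not tested. The receptors TNFRSF10B (-0.06) and TNFRSF1A (0.22) and the adaptors FADD (-0.61) and TRADD (0.70), which act there too, were not called. The receptor FAS was at 15.8, 12.5 and 6.29 CPM in sgControl and 111, 80.2 and 146 CPM in sgXIST7 (log2 fold change 3.27, SE 0.253, adjusted p = 5.0e-08). The ligand TNFSF10, also known as TRAIL, was at 1.06, 1.04 and 1.51 CPM in sgControl and 3.63, 3.99 and 3.28 CPM in sgXIST7 (log2 fold change 1.62, SE 0.314, adjusted p = 0.00065). CASP8, the caspase activated by these receptors, was at 65.3, 48.9 and 83.3 CPM in sgControl and 113, 148 and 164 CPM in sgXIST7 (log2 fold change 1.11, SE 0.22, adjusted p = 0.00078). None of the 3 overlapped between groups, and the call of CASP8 was lost without sgControl replicate 2 (0.93) or without sgXIST7 replicate 3 (0.99).

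Members of the mitochondrial route were not called, with BAX at 0.10 and BCL2L11 at -0.73. Of 12 anti-apoptotic genes, 11 were tested and 1 was called higher and 1 lower (9.09% each, against 7.83% and 6.19% of all genes). The decoy receptor TNFRSF10C was higher by at least 3.85-fold, from 3 or fewer counts in each sgControl library, and its call was lost without sgControl replicate 2 (1.80) or without sgXIST7 replicate 2 (2.29). BIRC5, the apoptosis inhibitor survivin, which also acts in mitosis, fell by 1.02 on the log2 scale. Its call was lost without sgControl replicate 2 (-0.81) or without sgXIST7 replicate 2 (-0.86).

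Stem cell markers were more often lower. Of 28 listed, 18 were tested, 1 was called higher and 7 lower, with a median of -0.93, running from -1.20 (without sgXIST7 replicate 1) to -0.48 (without sgControl replicate 2) with 1 library left out and -0.52 without a filter on low counts. The intermediate filament NES was at 6.63, 3.87 and 3.01 CPM in sgControl and 54.9, 33.9 and 32.5 CPM in sgXIST7 (log2 fold change 3.15, SE 0.314, adjusted p = 8.7e-07). SOX9, a transcription factor of progenitor cells, was at 7.69, 10.6 and 4.17 CPM in sgControl and 0.143, 0.227 and 0.604 CPM in sgXIST7 (log2 fold change -4.68, SE 0.524, adjusted p = 3.1e-06). The RNA-binding protein MSI1 was at least 5.87-fold lower, and the chemokine receptor CXCR4 (-2.20) and the Polycomb methyltransferase EZH2 (-1.97) fell. None of these 5 genes overlapped between the groups. Among the 7 lower genes, CXCR4 and ITGA6 (-1.29) lie on the long arm of chromosome 2. EZH2 lies on that of chromosome 7. All of them lie in segments described below, where medians were below 0.

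The markers that the study followed did not move together. ALDH1A3, an aldehyde dehydrogenase, was at 5.94, 3.47 and 5.94 CPM in sgControl and 1.91, 1.36 and 0.95 CPM in sgXIST7 (log2 fold change -1.82, SE 0.322, adjusted p = 0.00029), with no overlap. Its relative ALDH1A1 was far more abundant, at 2788, 3215 and 4263 CPM in sgControl and 4131, 3713 and 5524 CPM in sgXIST7, with overlapping groups (0.38, adjusted p = 0.068). CD24, a surface glycoprotein, was at 6, 7.34 and 2.21 CPM in sgControl and 2.29, 0.997 and 0.604 CPM in sgXIST7, also overlapping (-1.96, adjusted p = 0.011). CD24 has near-identical copies in the genome among which its reads could be split, and it passed the threshold without sgControl replicate 3 (-2.31) or without sgXIST7 replicate 1 (-2.66), and also with DESeq2 (-1.99, adjusted p = 0.0061) and without the third libraries of both groups (-2.02, adjusted p = 0.0084, edgeR). EPCAM, an epithelial adhesion molecule, was at 156, 165 and 158 CPM in sgControl and 228, 233 and 234 CPM in sgXIST7, not overlapping but short of the fold threshold (0.54, adjusted p = 0.0004). CD44 had 0 counts in all 6 libraries.

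Epithelial genes were more often higher than lower. Of 38 listed, 22 were tested, 9 were called higher and 2 lower, with a median of 0.62. The protease PRSS8 was at 0.0625, 0.347 and 0.532 CPM in sgControl and 4.59, 5.39 and 4.4 CPM in sgXIST7 (3.98, SE 0.441). The tight junction protein TJP3 (3.84), the transcription factor ELF3 (3.61) and the mucin MUC1 (2.58) rose. KRT8, an epithelial keratin, was at 4.19, 4.07 and 4.96 CPM in sgControl and 22.9, 26.5 and 28.1 CPM in sgXIST7, with no overlap. The desmosomal cadherin DSG2 was at least 8.58-fold lower and the transcription factor GRHL1 fell by 2.44 on the log2 scale, a call lost in the fit on the 6 compared libraries alone (adjusted p = 0.014). Without sgControl replicate 3, 4 of the list were lower.

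Mesenchymal and matrix genes were also more often called higher than lower. Of 38 listed, 29 were tested, 8 were called higher and 3 lower, with a median of 0.31, running from 0.19 (without sgXIST7 replicate 2) to 0.42 (without sgXIST7 replicate 1) with 1 library left out and 0.58 over genes with a mean CPM of at least 1. Beside COL1A2, COL1A1, the other chain of type I collagen, was at 0.0625, 0.248 and 0.177 CPM in sgControl and 2.05, 2.49 and 1.64 CPM in sgXIST7 (3.59, SE 0.577). The smooth muscle actin ACTA2 (2.61) and fibrillin FBN1 (2.12) rose. The matrix proteins TNC, at least 11.5-fold, and DCN, at least 8.71-fold, and the muscle protein CNN1 (-3.30) were lower.

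Transcription factors of the epithelial-to-mesenchymal transition were divided, with 2 higher and 3 lower of 8 tested and 10 listed. ZEB2 was at 51.6, 51.8 and 83.8 CPM in sgControl and 3.63, 5.89 and 7.17 CPM in sgXIST7 (log2 fold change -3.51, SE 0.25, adjusted p = 1.9e-08). SNAI1 (-2.41) and TWIST1 (-1.58) fell too, and PRRX1 was higher (2.24). None of these 4 overlapped between the groups. SNAI2 was called higher (1.86), a call lost without sgControl replicate 1 (2.28), without sgControl replicate 2 (2.14), without sgXIST7 replicate 1 (1.57), without sgXIST7 replicate 2 (2.0) or without sgXIST7 replicate 3 (1.97).

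**Figure D3:**
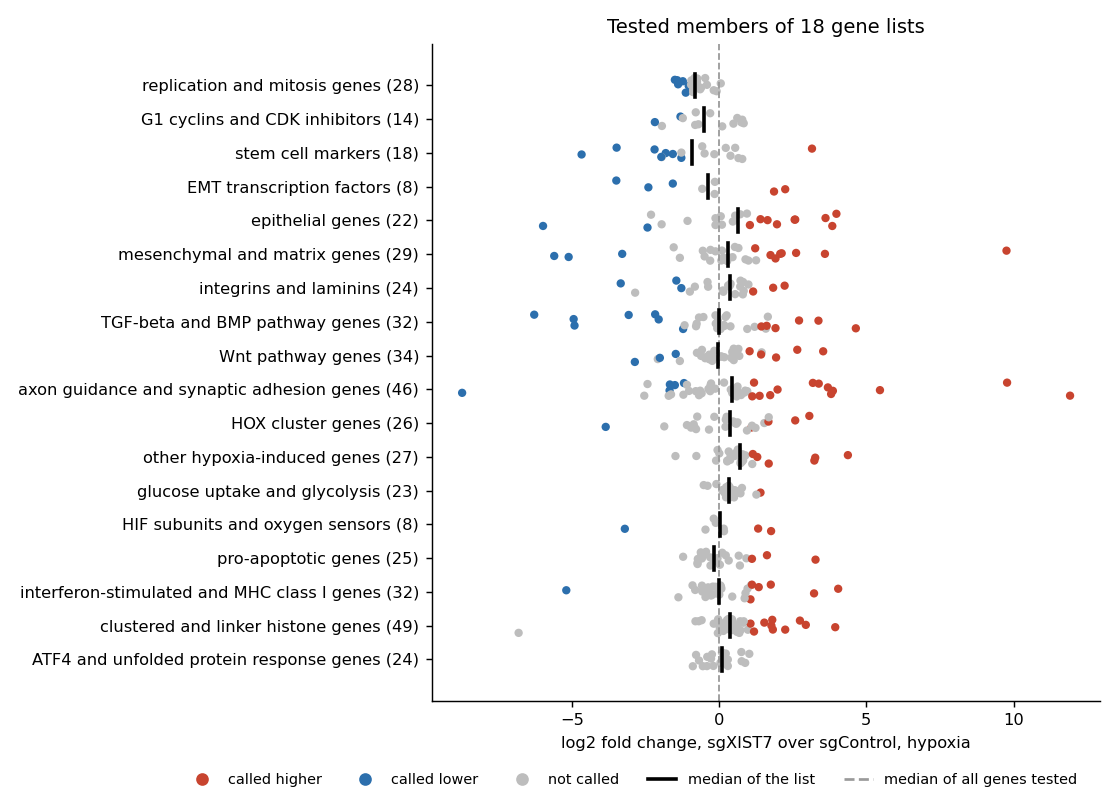
Log2 fold change of sgXIST7 over sgControl under hypoxia for the tested members of the gene lists, with points in red where called higher, blue where called lower and grey otherwise, and a black bar at each list's median. The replication and mitosis list lies to the left, with 27 of 28 members below 0, against a median of -0.02 over all genes.

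Of 39 genes of the TGF-beta and BMP pathways, 32 were tested, 6 were called higher and 7 lower, with a median of -0.01, running from -0.11 (without sgXIST7 replicate 2) to 0.07 (without sgControl replicate 2) with 1 library left out. The ligand TGFB2 was at 15.9, 10.2 and 4.87 CPM in sgControl and 0.143, 0.181 and 0 CPM in sgXIST7 (-6.29, SE 0.695). The ligand BMP5 fell by 4.95 on the log2 scale, beside INHBA. BMP4 was at least 3.64-fold lower, a call lost without sgXIST7 replicate 1 (-2.43) or without sgXIST7 replicate 2 (-3.28).

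The receptor TGFBR2 was at 1.38, 1.54 and 0.354 CPM in sgControl and 12.3, 13.6 and 9.76 CPM in sgXIST7 (3.38, SE 0.375). NOG, which binds and blocks BMP ligands, was at 0.312, 0.199 and 0.0886 CPM in sgControl and 5.49, 3.4 and 7.34 CPM in sgXIST7 (4.64, SE 0.552). Both genes were higher without overlap, as were the signal transducer SMAD9 (2.71) and the BMP target ID1 (1.91).

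Of 44 Wnt pathway genes, 34 were tested, 5 were called higher (14.7%) and 3 lower (8.82%), against 7.83% and 6.19% of all genes. Their median was -0.06, or 0.00 when genes that rest on 3 or fewer counts enter at their bound. The median without the bound ran from -0.31 (without sgControl replicate 3) to 0.02 (without sgControl replicate 2) with 1 library left out. Among them, 3 genes were higher without sgControl replicate 3 and 1 was lower without sgControl replicate 2. The secreted antagonist WIF1 was at 3.69, 1.44 and 0.354 CPM in sgControl and 22.1, 17.3 and 26.7 CPM in sgXIST7 (3.53, SE 0.526). The antagonist SFRP4 (2.65) and the R-spondin receptor LGR4 (1.93) rose, and the transcription factor LEF1 fell (-2.87). The calls of the Wnt deacylase NOTUM (1.42), the ligand WNT7B (-2.02) and the feedback inhibitor NKD1 (-1.48) changed when single libraries were left out. NOTUM was lost without sgControl replicate 2 (1.36), without sgControl replicate 3 (1.25), without sgXIST7 replicate 1 (1.28), without sgXIST7 replicate 2 (1.45) or without sgXIST7 replicate 3 (1.51), WNT7B without sgXIST7 replicate 1 (-1.99), without sgXIST7 replicate 2 (-2.14) or without sgXIST7 replicate 3 (-1.96) and NKD1 without sgControl replicate 2 (-1.21).

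Of 73 axon guidance and synaptic adhesion genes, 46 were tested, 13 were called higher and 5 lower. Their median was 0.42, and -0.27 without a filter on low counts. With 1 library left out and the filter rerun, the filtered median ran from 0.03 (without sgXIST7 replicate 2) to 0.39 (without sgControl replicate 1). It was thus below 0.42 in each of these fits, in which the members tested could also change. The count of lower genes was 3 without sgControl replicate 2 or without sgXIST7 replicate 2 and 8 without sgControl replicate 3. NRP2, a receptor of semaphorins and VEGF, was at 3.06, 2.78 and 0.62 CPM in sgControl and 120, 120.1 and 59.7 CPM in sgXIST7 (5.46, SE 0.366). SLITRK3, GPM6A and the ephrin EFNA5 (3.86) rose, and SEMA3D, the adhesion molecule NCAM1 (-1.69) and the ephrin EFNB1 (-1.51) fell. On the 6 compared libraries alone, the calls of NCAM1 (adjusted p = 0.019) and EFNB1 (adjusted p = 0.021) were lost, as was that of NCAM1 without the third libraries of both groups (-1.34, adjusted p = 0.012). The ephrin receptor EPHB2 was called lower (-1.68) with overlapping groups, a call lost without sgControl replicate 1 (-1.55), without sgControl replicate 2 (-1.39), without sgXIST7 replicate 2 (-1.81) or without sgXIST7 replicate 3 (-1.30).

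Of 31 integrins and laminins, 24 were tested and 3 were called higher and 3 lower (12.5% each, against 7.83% and 6.19% of all genes). The count of higher genes was 1 without sgControl replicate 2 and 5 without sgControl replicate 3. The laminin-binding ITGA7 rose (2.22), while ITGA4, at least 8.74-fold, the laminin LAMB1 (-1.46) and ITGA6 (-1.29) fell. ITGAV and ITGB3 form a vitronectin receptor. ITGAV was at 777, 572 and 1043 CPM in sgControl and 1535, 1803 and 1976 CPM in sgXIST7 (1.15), a call lost without sgControl replicate 2 (0.96), and ITGB3 (1.83) was lost without sgControl replicate 1 (1.63) or without sgControl replicate 2 (1.60).

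Of 39 HOX cluster genes, which set positional identity, 26 were tested. Of these, 4 were called higher (15.4%) and 1 lower (3.85%), against 7.83% and 6.19% of all genes. The count of lower genes was 4 without sgControl replicate 3, 3 without sgXIST7 replicate 1 and 2 without sgXIST7 replicate 3. HOXA11, which acts in the developing Mullerian tract, was at 0.25, 0.347 and 0.354 CPM in sgControl and 2.15, 2.17 and 1.38 CPM in sgXIST7 (2.58, SE 0.395). HOXD13 was at 3.69, 4.47 and 2.92 CPM in sgControl and 0.191, 0.136 and 0.518 CPM in sgXIST7 (-3.86, SE 0.483). Neither overlapped between the groups. HOXD10 (3.06) lost its call without sgControl replicate 1 (2.76) or without sgControl replicate 2 (2.63), HOXD1 (1.67) without sgControl replicate 1 (1.59), without sgControl replicate 2 (1.67) or without sgXIST7 replicate 3 (1.34) and HOXB4 (1.09) without sgControl replicate 3 (0.86).

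Of 40 interferon-stimulated and MHC class I genes, 32 were tested, 6 were called higher and 1 lower, with a median of -0.01, running from -0.16 (without sgXIST7 replicate 1) to 0.08 (without sgXIST7 replicate 3) with 1 library left out. IFI44L was at 0.188, 0.199 and 0.177 CPM in sgControl and 4.3, 2.85 and 2.42 CPM in sgXIST7 (4.04, SE 0.419). HLA-B, an antigen-presenting molecule, was at 65.8, 49.3 and 101 CPM in sgControl and 182, 243 and 299.6 CPM in sgXIST7 (1.75, SE 0.227). Neither overlapped, IFITM1 was at least 7.16-fold higher, and BST2 was the gene called lower. OAS2 was called higher (1.34) with overlapping groups, a call lost without sgControl replicate 2 (1.30), without sgControl replicate 3 (1.22), without sgXIST7 replicate 1 (1.0) or without sgXIST7 replicate 2 (1.24).

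Clustered and linker histone genes gave 10 higher and 0 lower of 49 tested and 71 listed, with a median of 0.35, running from 0.21 (without sgControl replicate 1) to 0.63 (without sgControl replicate 3) with 1 library left out, and 6 genes were higher without sgControl replicate 2. H2BC6 was at 1.5, 1.14 and 0.797 CPM in sgControl and 21.6, 14.6 and 18 CPM in sgXIST7, and H2BC8 was at 6.31, 5.96 and 2.66 CPM in sgControl and 47.4, 33.2 and 37 CPM in sgXIST7. H2AC8 rose by 2.24 on the log2 scale. The groups did not overlap for these 3 genes, but many histone genes are near-identical, so that reads could be split among them. H2BC3 was at least 2.84-fold higher, a call lost without sgControl replicate 1 (2.56), without sgControl replicate 2 (2.91) or without sgXIST7 replicate 1 (2.25).

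Several lists held 0 or 1 call. Of 82 nuclear genes for respiratory chain and ATP synthase subunits, 75 were tested, 0 were higher and 1 was lower, NDUFB2, at 69.2, 65.8 and 80.8 CPM in sgControl and 34, 29 and 33.2 CPM in sgXIST7. Of 23 cholesterol synthesis genes, 22 were tested and their regulator SREBF2 was called, at 45.5, 37.1 and 70.2 CPM in sgControl and 106, 158 and 116 CPM in sgXIST7. Neither gene overlapped between the groups. Of 53 clustered protocadherins, 40 were tested and PCDHA11 was called lower (-1.19), a call lost without sgControl replicate 1 (-1.27), without sgControl replicate 2 (-1.02), without sgXIST7 replicate 2 (-1.06) or without sgXIST7 replicate 3 (-0.92). Without sgControl replicate 3, 5 of them were lower. Of 24 ovarian and Mullerian lineage genes, 9 were tested and 7 of these stood above 0. Their median was 0.79, running from 0.41 (without sgXIST7 replicate 2) to 1.01 (without sgControl replicate 1) with 1 library left out. CRABP2, which binds retinoic acid, was the only one called (3.44), 11.1% of the 9 against 7.83% of all genes. Its call was lost on the 6 compared libraries alone (adjusted p = 0.015) and without the third libraries of both groups (2.33, adjusted p = 0.012). PAX8 was at 0.41 and not called. All 24 genes of ATF4 signalling and the unfolded protein response were tested and 0 were called by edgeR or by DESeq2, 9 had an unadjusted p under 0.05, and log2 fold changes ran from -0.90 to 1.03.

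X-linked genes were called at shares near those of all genes. Of 1123 X-linked genes listed, 490 were tested, 37 were higher (7.55%) and 32 lower (6.53%), with a median of 0.03. Without sgControl replicate 1 the count of higher X-linked genes was 19 and without sgControl replicate 2 it was 24. Among 14429 autosomal genes, 1132 were higher and 890 lower, with a median of -0.02. Of 21 genes known to escape X inactivation, 0 were higher and 1 was lower, JPX, with a median of 0.05, or -0.16 without sgControl replicate 3. MED14, a Mediator subunit on the X, was at 57.6, 69.1 and 69.1 CPM in sgControl and 67.2, 102 and 79.7 CPM in sgXIST7, with overlapping groups (0.35, adjusted p = 0.17).

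Single X-linked genes changed much more. LANCL3 was at 0.688, 0.298 and 0.443 CPM in sgControl and 12.1, 15 and 15.7 CPM in sgXIST7 (4.91, SE 0.332). The calpain CAPN6 was at 0.938, 0.347 and 0.354 CPM in sgControl and 13.7, 12.7 and 13.2 CPM in sgXIST7 (4.57, SE 0.39). MID1, a microtubule-associated ubiquitin ligase, was at 70, 102 and 72.9 CPM in sgControl and 8.6, 4.71 and 4.92 CPM in sgXIST7 (-3.74, SE 0.383). None of the 3 overlapped between groups. TENM1 (3.80) and L1CAM (3.38), both adhesion molecules of neurons, rose, and STARD8 was at least 3.62-fold lower. By RNA class, 125 of 1049 lncRNA genes were higher (11.9%) and 52 lower (4.96%). Of 263 snoRNA genes, 3 were higher (1.14%) and 13 lower (4.94%). The shares over all genes were 7.83% higher and 6.19% lower.

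Called genes were not spread evenly along the chromosomes. Medians were taken in windows of 10 Mb, of which 255 held at least 20 tested genes, and 3 segments were singled out after these values were seen, so they are described and not tested. On the long arm of chromosome 7 from 120 Mb on, the 4 windows had medians between -1.32 and -0.80. Of its 171 tested genes, 75 were lower (43.9%) and 3 higher, with a median of -1.02. This segment, which holds EZH2 and NDUFB2, had 1.15% of the tested genes with a position and 8.13% of those called lower.

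On the long arm of chromosome 2 from 90 Mb on, all 14 windows had medians below 0, from -0.80 to -0.17. Of 609 tested genes there, 99 were lower (16.3%) and 34 higher, with a median of -0.52. ZEB2, CXCR4, ITGA4 and ITGA6 lie in it, and so do NRP2, MAP2 and ITGAV, which rose. The window of chromosome 7 from 70 to 80 Mb had a median of 0.88, with 20 of 63 genes higher and 0 lower. The other 236 windows had medians between -0.37 and 0.50.

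The shifts were seen in each library. On distal 7q the median log2 difference from the sgControl mean was -0.84, -0.85 and -0.80 in the sgXIST7 libraries, with a pseudocount of 0.5 CPM. It was -0.03, 0.01 and 0.00 in the sgXIST9 hypoxia libraries. On 2q it was -0.47, -0.45 and -0.45 in sgXIST7 and -0.44, -0.50 and -0.42 in sgXIST9, measured from the same sgControl libraries. Distal 7q was thus low in the sgXIST7 libraries and near 0 in the sgXIST9 libraries, whereas 2q was low in both. In normoxia the fitted medians of sgXIST7 against sgControl were -0.84 on distal 7q, -0.51 on 2q and 0.89 in the window of 7q. DNA copy number was not analysed here, and its part in these shifts was not tested.

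**Figure D4:**
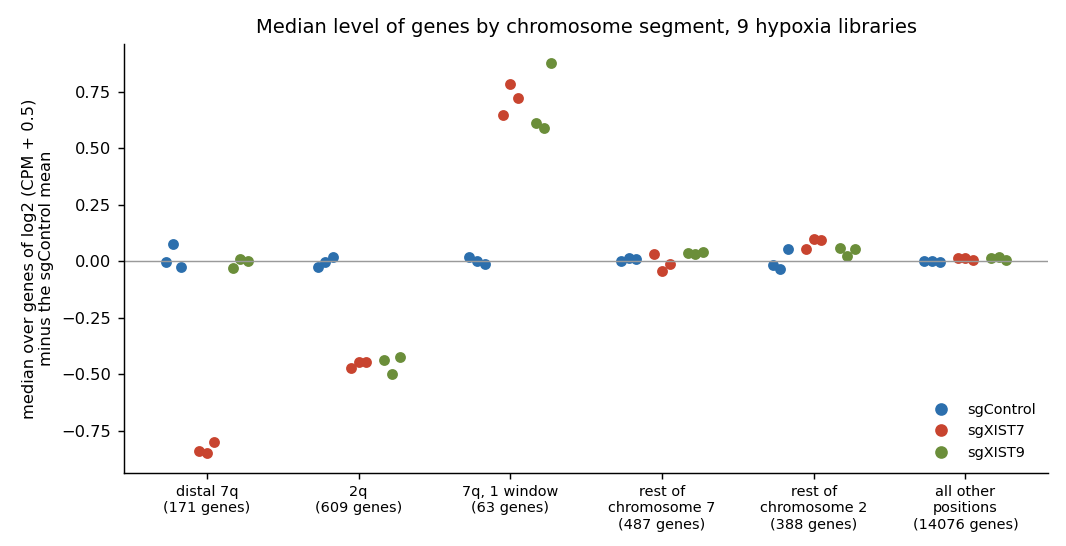
Median log2 difference from the mean of the 3 sgControl hypoxia libraries over the genes of each chromosome segment, 1 point per hypoxia library. Distal 7q lies between -0.85 and -0.80 in the sgXIST7 libraries, while 2q is low and the window of 7q high in both sgXIST7 and sgXIST9.

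The same guides were compared in normoxia, in libraries not shared with the hypoxia comparison. There, 698 genes were higher (4.67%) and 461 lower (3.09%), together 7.76%. Of the 1169 genes higher under hypoxia, 469 were also higher in normoxia, 40.1% of the former and 67.2% of the latter. Of the 924 lower genes, 294 were also lower in normoxia, 31.8% and 63.8%. Opposite calls were few, with 3 genes higher under hypoxia and lower in normoxia and 2 the other way. Across the 14938 genes, which are not independent replicates, the log2 fold changes in the 2 conditions had r = 0.72.

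The difference between the effects, tested as an interaction, was called for 135 genes in the positive (0.904%) and 92 in the negative direction (0.616%). Of these 227 genes, 134 were called under hypoxia, 74 in normoxia and 52 in neither. With 1 library left out at a time the number ran from 84 (without sgXIST7 hypoxia replicate 2) to 1198 (without sgControl hypoxia replicate 3), and of the 12 fits the one without sgXIST7 normoxia replicate 2, at 164, was within 1.5 times of 227.

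ADM, which encodes the vasodilator peptide adrenomedullin, had the largest difference among genes with a mean count of at least 100. In normoxia it was at 274, 263 and 325 CPM in sgControl and 8.6, 9.88 and 5.92 CPM in sgXIST7 (log2 fold change -5.15). Under hypoxia it was at 266, 325 and 379.5 CPM in sgControl and 141, 186 and 237 CPM in sgXIST7 (-0.78, adjusted p = 0.015). The groups did not overlap in either condition, and the interaction was 4.36 (adjusted p = 5.0e-06).

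SCG2, a granin of secretory vesicles, showed its effect under hypoxia, at 1, 1.39 and 1.59 CPM in sgControl and 49.9, 40 and 32.3 CPM in sgXIST7 (4.95). In normoxia it was at 9.79, 14.2 and 11 CPM in sgControl and 21.8, 22.4 and 12.8 CPM in sgXIST7 (0.71), and the interaction was 4.25 (adjusted p = 4.9e-06). ALDH1A3 fell less under hypoxia (-1.82) than in normoxia (-4.94). MOXD1 was at 1.44 and -1.70, and the AP-1 factor FOSL2 at 0.75 and 3.65. PRKAA2, a catalytic subunit of the energy sensor AMPK, was at -1.32 and -4.50, and its call under hypoxia was lost without sgXIST7 replicate 1 (-1.07) or without sgXIST7 replicate 2 (-1.35).

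Some cell cycle genes were also called in the interaction. Of the 28 replication and mitosis genes, 4 were called in the negative and 0 in the positive direction, with a median difference of -0.70. Their median in normoxia was -0.16. E2F1 was at -1.40 under hypoxia and 0.00 in normoxia (interaction -1.40, adjusted p = 0.0026), and CCNE2 at -1.24 and 0.15 (-1.39, adjusted p = 0.0059). CDKN2B was at -2.19 and 0.19 (-2.39, adjusted p = 0.0048). Cholesterol synthesis genes had 8 members called higher in normoxia and 1 under hypoxia, and 1 member was called in the interaction. Of the 12 fits that left out 1 library, the interaction call was lost in 1 for E2F1 (without sgXIST7 hypoxia replicate 2, -1.32), in 9 for CCNE2 (values from -1.54 to -1.24) and in 9 for CDKN2B (-2.68 to -2.17).

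**Figure D5:**
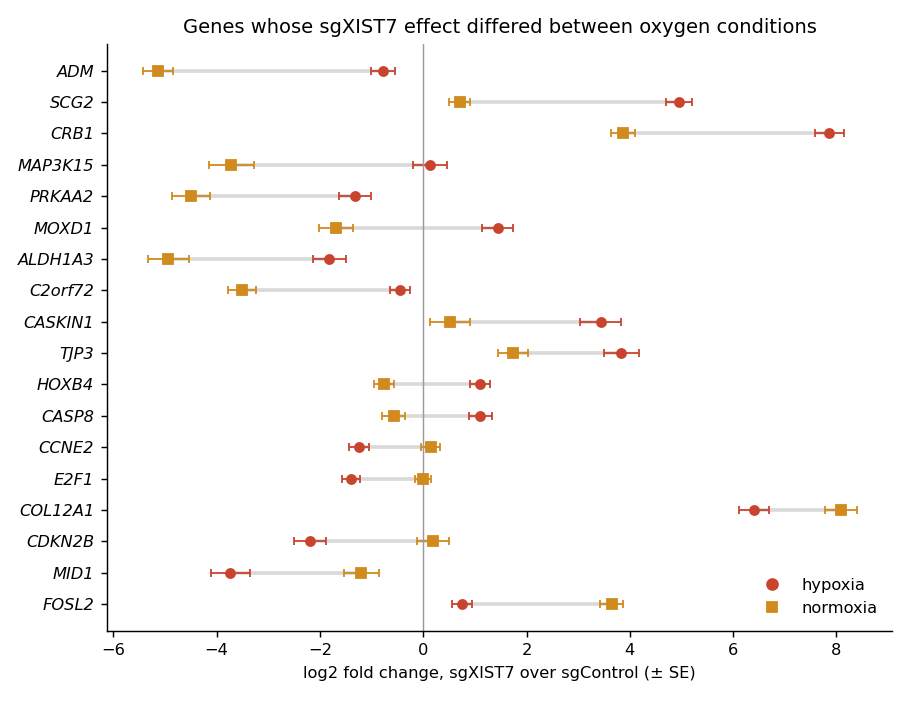
Log2 fold change of sgXIST7 over sgControl under hypoxia and in normoxia for 18 named genes called in the interaction, ordered by the difference, as red circles (hypoxia) and orange squares (normoxia) with bars of 1 SE. ADM and SCG2 have the highest differences, 4.36 and 4.25, and FOSL2 the lowest, -2.90.

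A direct test against the second guide under hypoxia called 308 genes higher (2.06%) and 358 lower (2.4%) in sgXIST7 than in sgXIST9, together 4.46%, and 434 in all without sgXIST7 hypoxia replicate 2. XIST was at least 129.8-fold lower. ALPK2, at 0 CPM in each sgXIST9 library, was at least 408-fold higher, TGFBR2 at least 77.3-fold and DLGAP1-AS3 at least 125-fold higher. CDH10 (6.55) and ARMCX3 (5.88) were the other 2 of the 5 genes named as higher.

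OSTN, a secreted peptide, was at 0.43, 0.544 and 0.95 CPM in sgXIST7 and 347, 255 and 493 CPM in sgXIST9. UTS2B (-9.16) and the glutamate receptor GRIK2 (-8.67) were lower too, and none of the 3 was called against sgControl. The nuclear receptor NR2F2 was at 0.0478, 0.0453 and 0 CPM in sgXIST7, 9.57, 14 and 5.74 CPM in sgXIST9 and 7.13, 10.9 and 5.49 CPM in sgControl, at least 54.4-fold lower than in sgXIST9. HIF1A was at 189, 182 and 183 CPM in sgXIST9, below each sgXIST7 library, and ZEB2 at 0.319, 0.136 and 0.316 CPM. Against sgControl, sgXIST9 itself had 917 genes higher (6.14%) and 506 lower (3.39%), together 9.53%. The comparisons of either guide with sgControl share its 3 libraries, and both comparisons of sgXIST7 share its own.

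Markers of other cell types were checked in the same libraries, where fewer cells of a type and less RNA per cell cannot be told apart. Of 7 leukocyte markers 1 was tested, CD3E was at 0 throughout, and the summed level was 11.4 to 24.9 CPM in sgControl and 15.3 to 26.3 CPM in sgXIST7. Of 6 endothelial markers 0 were tested, with CDH5, KDR and CLDN5 at 0. Fibroblast markers, mostly COL3A1, summed to 736 to 999 CPM and 871 to 1288 CPM, and of 4 tested of 7, COL1A1 and COL1A2 were higher and DCN lower. Of 5 neuron markers, which summed to 161 to 226 CPM and 188 to 245 CPM, 3 were tested, MAP2 was higher and SYP lower (-1.12), a call lost without sgControl replicate 1 (-0.89). The part of other cells in the results was not tested.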

How the data were processed

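RNA-seq libraries of OVCAR3-KRAB cells were made with the TruSeq stranded total RNA kit after rRNA depletion and sequenced paired-end. The authors trimmed reads with Trimmomatic, checked them with FastQC, mapped them with HISAT2 to hg38 and obtained gene counts with featureCounts. The annotation release and strand setting are not given in the sources used here. The deposited values are raw counts for 28277 genes, after 2 broken records were left out, in 18 libraries. Groups were taken from the sample labels. The main test was edgeR's quasi-likelihood test (edgeR 4.0.16, limma 3.58.1, R 4.3.3) with TMM factors, a filter on low counts (filterByExpr, minimum count 10, minimum total 15) and Benjamini-Hochberg adjustment over 14938 genes. All 18 libraries in 6 groups shared one estimate of the spread. A call needed an adjusted p under 0.01 and a log2 fold change beyond 1. CPM were computed on TMM-scaled library sizes. Where all libraries of a group held 3 counts or fewer, the fold is a bound computed against 3 counts per library, which covers counting error only. An exact permutation test of 3 against 3 libraries cannot go below p = 0.1 (two-sided), so none was run.

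The named genes were XIST, JPX, FTX and TSIX, the markers that the study names, the 12 largest changes in each direction, up to 4 called genes in each direction of each of 30 lists, up to 10 genes of the interaction and up to 5 in each direction against sgXIST9, with a mean count of at least 100 for the largest changes, the interaction and sgXIST9. The comparison, its lists and its rules were chosen with earlier results of these data known. Alternatives were DESeq2 1.42.0, other scaling factors, other filters, an adjusted p under 0.05, a replicate block, fits on the compared groups alone and leaving out each library. Leaving out the third hypoxia libraries together was added after seeing the data. The filter on low counts was rerun in each fit that left out libraries. Some genes that the rule names are not reported here. The procedure was tested on simulated data. The XIST promoter came from RefSeq tables for GRCh38.p14.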

Additional observations from a re-analysis of the deposited data

Results flagged for a closer look

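Of 136 named genes tested, 18 had an effect of sgXIST7 that differed between hypoxia and normoxia by the interaction test, 12 with a higher value under hypoxia and 6 with a lower one. The values below are differences of log2 fold changes, hypoxia minus normoxia. The difference was 4.36 for ADM, 4.25 for SCG2, 3.99 for CRB1, 3.85 for the kinase MAP3K15, 3.17 for PRKAA2, 3.14 for MOXD1 and 3.12 for ALDH1A3. For C2orf72 it was 3.05, for TJP3 2.09, for HOXB4 1.85 and for CASP8 1.68.

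On the negative side, the difference was -1.39 for CCNE2, -1.40 for E2F1, -1.68 for COL12A1, -2.39 for CDKN2B, -2.53 for MID1 and -2.90 for FOSL2. COL12A1 rose in both conditions, by 6.41 under hypoxia and by 8.09 in normoxia, and MID1 fell by 3.74 and by 1.20.

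The synaptic gene CASKIN1 had a difference of 2.92, from 3.44 under hypoxia and 0.52 in normoxia. With 1 library left out at a time, in 12 fits, the calls of ADM, SCG2, CRB1, MAP3K15, PRKAA2, MOXD1, ALDH1A3, C2orf72, HOXB4 and FOSL2 were kept in each. E2F1 lost its call in 1, without sgXIST7 hypoxia replicate 2 (-1.32). TJP3 lost it in 10 fits (values from 1.73 to 2.64), CASP8 in 10 (1.5 to 1.89), CASKIN1 in 9 (2.56 to 3.33), CCNE2 in 9 (-1.54 to -1.24), COL12A1 in 9 (-1.92 to -1.47), CDKN2B in 9 (-2.68 to -2.17) and MID1 in 9 (-2.88 to -2.27).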

How the results depend on the processing

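Over the alternatives run, sgXIST7 against sgControl under hypoxia gave between 892 and 1654 genes higher and between 669 and 1361 lower when 1 library was left out, both lowest without sgControl replicate 2 and highest without sgControl replicate 3. Fitted on the 6 compared libraries alone, 689 were higher and 424 lower. DESeq2 gave 1208 and 959. XIST stayed called and lower in each fit. Genes called in the interaction numbered 227, and 706 at an adjusted p under 0.05, 549 with DESeq2, 79 on the compared groups alone, 918 without the third hypoxia libraries and 84 to 1198 with 1 library left out. Against sgXIST9, 666 genes were called, 323 on the compared groups alone and 434 to 973 with 1 library left out. The cause of these shifts was not tested. Of 125 named genes called besides XIST, 96 kept their call under each alternative in which they were tested and 29 lost it under 1 or more. Some were filtered out of an alternative and not counted as lost there. With a mean CPM of at least 1 required, 109 kept their call, 1 lost it and the rest were not tested. Among genes not called, GRIK2 ran from -0.072 (without sgXIST7 replicate 1) to 4.64 (without sgControl replicate 2), and MAP3K15 ran from -0.114 to 0.453 and was below 0 without sgControl replicate 1 (-0.02), sgControl replicate 2 (-0.02) or sgXIST7 replicate 3 (-0.114).

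Replicate numbers were shared between groups. Deviations of same-numbered sgControl and sgXIST7 libraries correlated for replicate 1 (0.37) and replicate 3 (0.433) but not for replicate 2 (-0.005). sgControl replicate 2 correlated best with sgXIST7 replicate 1 (0.347). The correlation was -0.367 for sgControl replicate 1 with sgXIST7 replicate 3, and -0.449 for sgControl replicate 3 with sgXIST7 replicate 1. Deviations from a group mean cancel out within the group, so these correlations depend on each other and are not separate checks. Whether same-numbered libraries were handled together was not tested. With a replicate block, 1337 genes were higher and 1078 lower, CD24 was called (-2.05, adjusted p = 0.00045), as was OSTN (1.46, adjusted p = 0.0062), XIST was at -10.74, the interaction gave 764 and the test against sgXIST9 966. With the block on the compared groups alone, 1059 were higher, 726 lower, 367 were called in the interaction and 645 against sgXIST9. With 3 libraries a group and 3 counts worth up to 0.266 CPM, small changes of genes at low levels were not detectable.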
